A study of Mus musculus with 32 samples.

Results

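The genes described here are 4 keratins (Krt7, Krt8, Krt18 and Krt19), the laminin chains Lama5 and Lamb3, and Tinagl1, 7 of the 41388 genes counted in 32 RNA sequencing libraries of mouse chondrocytes. They were selected on the fold change between Cre and GFP virus in Ldha f/f chondrocytes, where Krt7, Krt19, Lama5, Lamb3 and Tinagl1 were among the genes with the highest values. Every value from Ldha f/f is therefore given as a description with no test. The libraries came from primary sternal chondrocytes of newborn C57BL/6 mice that were used without passaging, and each of the 16 conditions has 2 libraries. Cells of wild-type mice received no virus. They were untreated or were given 40 µM of FX11, which inhibits LDHA, 10 ng/mL of IL-1β, an inflammatory cytokine, or both. Chondrocytes of 3 lines with floxed alleles, Ldha f/f (lactate dehydrogenase A), Nampt f/f (the rate-limiting enzyme of NAD salvage) and Nfkbiz f/f (the NF-κB cofactor IκB-ζ), were infected with adenovirus carrying eGFP alone (GFP virus) or Cre with eGFP (Cre virus). They were then cultured for 24 h with or without IL-1β at 10 ng/mL. The virus can infect any cell of the culture, so the deletion was not limited to chondrocytes by a promoter. No uninfected floxed cells and no wild-type cells with Cre virus are among the 16 conditions, so that Cre expression and loss of the floxed gene cannot be told apart within a line. The labels do not name separate animals or cultures for the 2 libraries of a condition, and p-values therefore measure only the spread between these libraries, which may be technical.

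Keratins are intermediate filament proteins of epithelia that assemble as pairs of an acidic type I chain (KRT18, KRT19) and a basic type II chain (KRT7, KRT8), and these 4 are the keratins of simple, single-layered epithelia. Laminins are secreted trimers of an α, a β and a γ chain that build basement membranes. LAMA5 is an α chain found in many adult basement membranes, and LAMB3 is a β chain of the laminin that anchors the skin epithelium. TINAGL1 is a secreted basement membrane protein related to the tubulointerstitial nephritis antigen. Cartilage chondrocytes are mesenchymal cells whose matrix is built on type II collagen and aggrecan, and keratins are not among their characteristic products.

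Krt7, Krt8 and Krt18 lie in the type II keratin cluster of chromosome 15 in GRCm38, Krt7 at chr15:101411043-101430313 on the plus strand, Krt8 at chr15:101996711-102004342 on the minus strand and Krt18, a type I gene, at chr15:102028216-102032026 on the plus strand. The 5′ ends of Krt8 and Krt18 are 23.9 kb apart and face away from each other, and 26 genes, 24 of them with keratin symbols, lie between Krt7 and Krt18. Krt19 is at chr11:100140810-100148665 (minus), Lama5 at chr2:180176373-180225859 (minus), Lamb3 at chr1:193301957-193343878 (plus) and Tinagl1 at chr4:130164454-130175122 (minus). No gene on the opposite strand overlaps any of the 7, so counting without strand would not mix them with an antisense partner.

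RefSeq promoter windows (GRCm38.p6) were given for 6 of the 7 genes, all but Krt19, and the 250 bases upstream of each start were searched on both strands for 8 short motifs, chosen with the expression results known. CAGGTG, the E-box bound by repressors such as SNAI2 and ZEB1, was found upstream of 5 of the 6 genes (Krt7, Krt8, Krt18, Lama5 and Lamb3), in 5 of their 8 windows, against 17.2% of all 32851 windows. GGGCGG, the GC box, was found upstream of 3 genes, against 32.7% of windows, and an NF-κB-like motif upstream of 3, against 17.6%. CATTCC (TEAD) was found for 2 genes against 12.6% of windows and TGANTCA (AP-1) for 1, Tinagl1, against 6.75%. The TATA box TATAAA was found for none, against 12.4%. The same held for the ETS motif, CCGGAA, against 12.0%, and for the TCF motif, CTTTGA, against 13.8%. A match describes the letters of the window only. The 250 upstream bases of Krt8 (chr15:102004343-102004592, minus strand), Krt18 (chr15:102027966-102028215, plus) and Lama5 (chr2:180225860-180226109, minus) are shown 5′ to 3′ because they hold the motif that most of the genes share, with CAGGTG or its reverse complement in capitals.
Krt8: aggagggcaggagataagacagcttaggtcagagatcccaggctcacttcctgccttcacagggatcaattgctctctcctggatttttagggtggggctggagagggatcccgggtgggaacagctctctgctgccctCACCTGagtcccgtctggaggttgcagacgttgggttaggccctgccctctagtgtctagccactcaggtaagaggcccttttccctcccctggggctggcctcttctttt
Krt18: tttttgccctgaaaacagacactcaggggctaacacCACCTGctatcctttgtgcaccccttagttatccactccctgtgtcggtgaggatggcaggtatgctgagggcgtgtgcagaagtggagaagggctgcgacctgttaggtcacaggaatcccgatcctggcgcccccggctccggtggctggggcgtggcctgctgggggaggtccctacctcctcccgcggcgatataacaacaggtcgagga
Lama5: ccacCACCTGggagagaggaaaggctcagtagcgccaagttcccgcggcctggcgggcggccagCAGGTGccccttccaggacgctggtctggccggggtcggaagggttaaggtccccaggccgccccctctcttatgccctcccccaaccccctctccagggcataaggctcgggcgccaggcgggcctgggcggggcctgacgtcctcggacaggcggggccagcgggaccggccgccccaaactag
The match lay with its first base 111 bases before the start in Krt8 and 214 bases before it in Krt18, and Lama5 had 2 matches, at 246 and 186 bases.

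Library totals ranged from 15830658 to 39959888 counts, with a median of 25363482. The floxed gene was lower with Cre virus in all 4 libraries of its line. Ldha read 918 and 869 CPM (counts scaled to the library total, with TMM factors) with GFP virus and 118 and 111 with Cre virus, and Nampt read 59.5 and 54.6 against 6.72 and 6.86. Nfkbiz read 16.1 and 17.0 against 9.65 and 8.28 without IL-1β, and with IL-1β it read 235 and 229 against 29.5 and 32.3. In wild type, 2 libraries of the second set went against their labels. The library labelled FX11 read 166 CPM of Nfkbiz and 2016 of Mmp3, a metalloproteinase gene that IL-1β induces, whereas the library labelled IL-1β read 9.86 and 0.784. The 16 chondrocyte markers summed to between 15870 and 111723 CPM over the 32 libraries. The 2 libraries of a condition differed by more than counting noise in all 16 conditions, with a chi-square per degree of freedom of at least 6.98 over the genes counted.

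The 4 keratins were at 6.15 CPM or more in the 8 Cre libraries of the Ldha f/f and Nampt f/f lines. In the other 24 libraries they were low, at no more than 3.90 CPM, and each had a lowest count of 0 to 2 there. In Nampt f/f, Krt7 read 1.34 and 2.21 CPM with GFP virus, 38.0 and 38.0 with Cre virus, 0.0801 and 0.370 with GFP virus and IL-1β (2 and 6 counts), and 91.2 and 81.7 with Cre virus and IL-1β. Krt8, its type II relative, read 0.406 and 0.526, then 9.79 and 10.4, then 0.160 and 0.247 (4 counts in each library), then 38.7 and 39.2 in the same order. In this line the lowest values of both genes were those of GFP virus with IL-1β. Krt18, the usual partner of KRT8, read 2.05 and 2.52 CPM with GFP virus, 25.1 and 21.8 with Cre virus, 1.56 and 1.11 with GFP virus and IL-1β and 79.8 and 73.3 with both Cre virus and IL-1β. Krt19, the smallest type I keratin and one that lacks most of the tail domain, read 1.37 and 2.00, then 16.8 and 21.7, then 0.962 and 1.05, then 65.7 and 71.0. In Ldha f/f, Krt7 read 2.78 and 2.99 CPM with GFP virus, 22.5 and 23.4 with Cre virus, 0.241 and 0.188 with GFP virus and IL-1β and 81.5 and 75.8 with Cre virus and IL-1β.

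Lama5, Lamb3 and Tinagl1 were detected in all 32 libraries. In Nampt f/f, Lama5 read 61.3 and 59.1 CPM with GFP virus, 143 and 145 with Cre virus, 22.0 and 23.0 with GFP virus and IL-1β and 272 and 280 with Cre virus and IL-1β. Lamb3 read 18.5 and 18.8, then 38.1 and 38.2, then 10.1 and 10.2, then 166 and 173 in that order. For both laminin chains the 2 libraries of a condition differed far less than the conditions did. Tinagl1 read 60.3 and 65.2 CPM with GFP virus, 240 and 254 with Cre virus, 52.0 and 47.6 with GFP virus and IL-1β and 1081 and 1165 with Cre virus and IL-1β. It had the highest CPM of the 7 in the Cre conditions of Ldha f/f and Nampt f/f, but not in all conditions. In Ldha f/f with Cre virus and IL-1β it read 683 and 728 CPM.

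**Figure D1:**
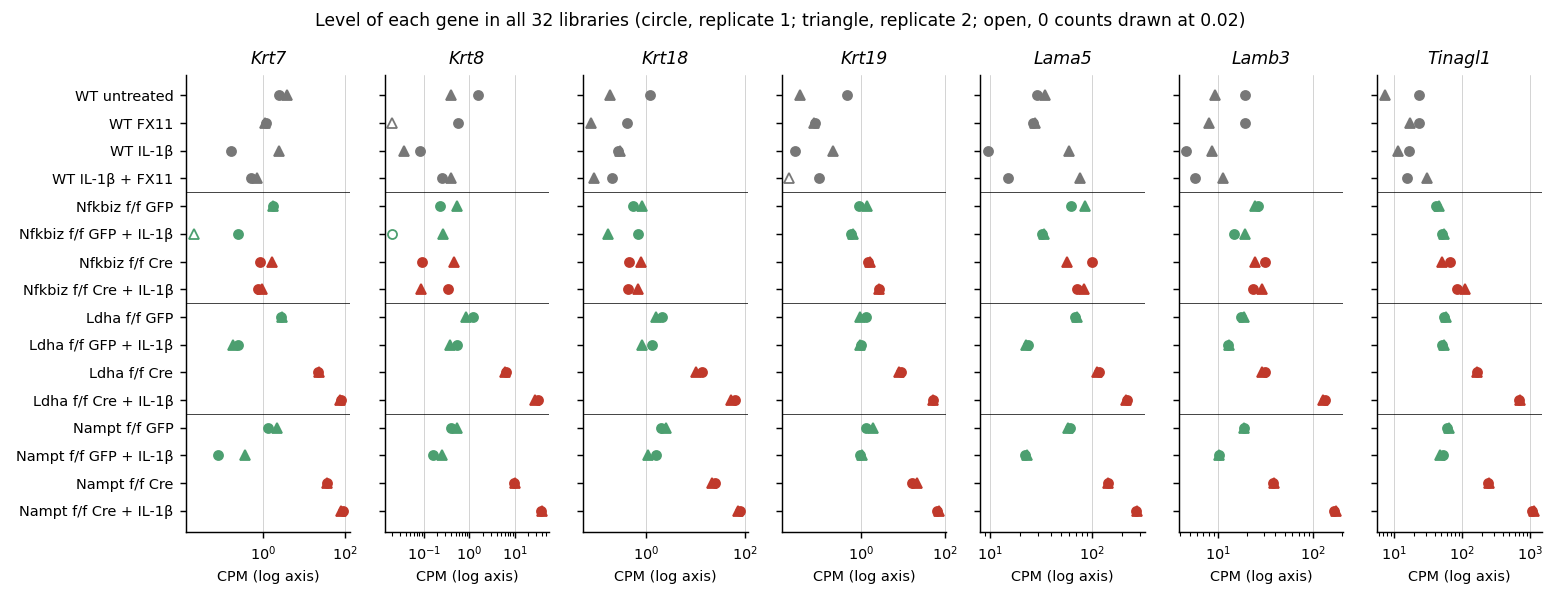
Level of each of the 7 genes in CPM (log axes) in all 32 libraries, 1 row per condition, with circles and triangles for the 2 libraries, grey for wild type, green for GFP virus and red for Cre virus. By mean level the 4 Cre conditions of Ldha f/f and Nampt f/f lie furthest right for every gene, with Tinagl1 reaching 1165 CPM. For Lamb3 the first library of Nfkbiz f/f with Cre virus (31.0 CPM) lies right of the second of Ldha f/f with Cre virus (29.1 CPM).

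Ordered by mean level, the first 4 of the 16 conditions were the same for all 7 genes: Nampt f/f with Cre virus and IL-1β, Ldha f/f with Cre virus and IL-1β, Nampt f/f with Cre virus and Ldha f/f with Cre virus. This order was found for 1.57% of the 17094 genes over 1 CPM in any library. All 8 libraries lay above the other 24 for 1.02% of those genes and for 6 of the 7. The Ldha f/f conditions were among the values that chose the genes, so their place is a description. The 2 libraries of each of these did not overlap those of the next for any of the 7, with 1 exception, Lamb3, for which Ldha f/f with Cre virus (31.3 and 29.1 CPM) overlapped Nfkbiz f/f with Cre virus (31.0 and 24.4). The lowest library of the first 4 conditions was 5.77 times the highest of the other 12 for Krt7, 3.86 times for Krt8, 4.07 times for Krt18, 2.98 times for Krt19, 1.49 times for Tinagl1 and 1.11 times for Lama5. Among the other 12 conditions most neighbours in the order overlapped, from 7 of 11 pairs for Krt7 and Krt19 to 11 of 11 for Krt8. Per kilobase of gene length (RPKM with the same scaling), the summed type I keratins Krt18 and Krt19 were above the type II keratins Krt7 and Krt8 in all 8 Cre libraries of Ldha f/f and Nampt f/f, at 92.5 and 90.6 against 34.4 and 33.3 in Nampt f/f with Cre virus and IL-1β. This rests on the length taken for Krt7, 7055 bases against 1400 to 1855 for the other 3. In CPM, without length, the type II sum was the higher in Nampt f/f with Cre virus alone (47.8 and 48.5 against 41.9 and 43.5) and the lower with IL-1β added (130 and 121 against 146 and 144).

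In Ldha f/f, the line whose values chose the genes, the fitted log2 fold changes of Cre over GFP virus without IL-1β were 2.98 for Krt7, 2.54 for Krt8, 2.64 for Krt18, 2.85 for Krt19, 0.71 for Lama5, 0.72 for Lamb3 and 1.53 for Tinagl1. With IL-1β they were 8.47, 6.03, 5.70, 5.72, 3.26, 3.36 and 3.77 in that order. Within the library sets these values differed by at most 0.493 without IL-1β, for Krt8 (2.37 and 2.86), and by at most 0.385 with it, for Krt18 (5.58 and 5.96). In bulk RNA, more cells that express a gene and more RNA per cell cannot be told apart, and this holds for each difference below.

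The same contrast in Nampt f/f asks whether deletion of a second metabolic gene moves the 7 genes. The rule for the choice names Ldha f/f and not these libraries, though earlier results of all libraries were known when it was made. All 7 rose with Cre virus, both without and with IL-1β. Krt8 stayed under 1 CPM in the 4 GFP libraries of the line and was tested only because it passed the filter in the Cre libraries. Its values in both contrasts are therefore a description, whereas the other 6 passed the filter with GFP virus too. Without IL-1β the log2 fold changes (± SE, n = 2 against 2) in edgeR's quasi-likelihood test were 4.51 ± 0.19 for Krt7 (adjusted p = 1.75e-07), 4.48 ± 0.18 for Krt8, 3.39 ± 0.14 for Krt18 and 3.57 ± 0.18 for Krt19. The basement membrane genes rose less, by 1.25 ± 0.06 for Lama5, 1.03 ± 0.07 for Lamb3 and 1.97 ± 0.07 for Tinagl1. Among the 6 genes other than Krt8 the largest adjusted p was 5.18e-06 (edgeR), for Lamb3. In this contrast 8.30% of the 16136 genes tested were called higher, at an adjusted p of 0.05 or less, and 6.07% lower, and the median gene changed by -0.02. With the library set as a block 4311 genes were called in either direction in place of 2319. Scaling by library totals moved the median by 0.10 and the split from 1340 higher and 979 lower to 1792 and 466. The 6 genes other than Krt8 were called higher in both. In a model of all 32 libraries, wild type included, Lama5 (adjusted p = 0.467) and Lamb3 (adjusted p = 0.222) were not called by edgeR and the other 5 were.

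With IL-1β the same genes differed more between the viruses. Krt7 rose by 8.78 ± 0.27 on the log2 scale, Krt8 by 7.63 ± 0.21, Krt18 by 5.81 ± 0.16 and Krt19 by 6.11 ± 0.20. Lama5 rose by 3.63 ± 0.07, Lamb3 by 4.08 ± 0.08 and Tinagl1 by 4.51 ± 0.08. Among the 6 genes other than Krt8 the largest adjusted p was 4.61e-09 (edgeR), for Krt19, while 25.0% of all genes were called higher and 23.4% lower. The size for Krt7 rests on the few counts with GFP virus and IL-1β, and it was 7.82 without the first of those libraries and 10.02 without the second, with the call kept in both. Ranked by fold change among all 16136 genes, Krt7 was 9, Krt8 23, Krt19 31, Krt18 33, Tinagl1 77, Lamb3 113 and Lama5 158.

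Nfkbiz f/f gave smaller values. Krt8 and Krt18 did not pass the filter, which asks for over 1 CPM in any of the line's 8 libraries, and their highest values there were 0.548 and 0.844 CPM. The other 5 were tested. Without IL-1β none of the 5 was called, with log2 fold changes of -0.48 ± 0.55 for Krt7, 0.38 ± 0.37 for Krt19, 0.08 ± 0.21 for Lama5, 0.11 ± 0.16 for Lamb3 and 0.41 ± 0.15 for Tinagl1. Cre virus moved few genes here, and 0.111% of 15356 were called higher. With IL-1β all 5 were called higher. Krt19 read 0.601 and 0.652 CPM with GFP virus and 2.66 and 2.78 with Cre virus, a log2 fold change of 2.09 ± 0.39 (edgeR, adjusted p = 0.00258). Tinagl1 read 50.8 and 54.9 against 83.9 and 110, which was 0.86 ± 0.14 (edgeR, adjusted p = 0.00123). Lama5 read 32.9 and 34.0 against 72.2 and 84.9, which was 1.21 ± 0.22 (edgeR, adjusted p = 0.00215). Lamb3 (14.7 and 19.0 against 23.4 and 28.6 CPM) rose by 0.61 ± 0.16 and Krt7 (5 and 0 counts against 18 and 22) by 2.80 ± 0.83, with adjusted p of 0.02 and 0.0351 (edgeR).

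The calls of Lama5, Krt19 and Tinagl1 in Nfkbiz f/f with IL-1β held when any 1 of the 8 libraries was left out. Those of Krt7 and Lamb3 did not. Krt7 lost its call without the GFP library at 0 counts (1.75, edgeR adjusted p = 0.215), without the second library with Cre virus and IL-1β (2.65, adjusted p = 0.0999) and without the first with GFP virus alone (2.80, adjusted p = 0.0515). Lamb3 lost it without the first library with GFP virus and IL-1β (0.44, edgeR adjusted p = 0.207) or the second with Cre virus and IL-1β (0.46, adjusted p = 0.107). In this contrast 8.16% of the genes tested were called higher and 9.20% lower. Scaled by library totals these were 1866 and 1073 genes in place of 1253 and 1413, and in a model of all 32 libraries 1 of the 5 was called.

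**Figure D2:**
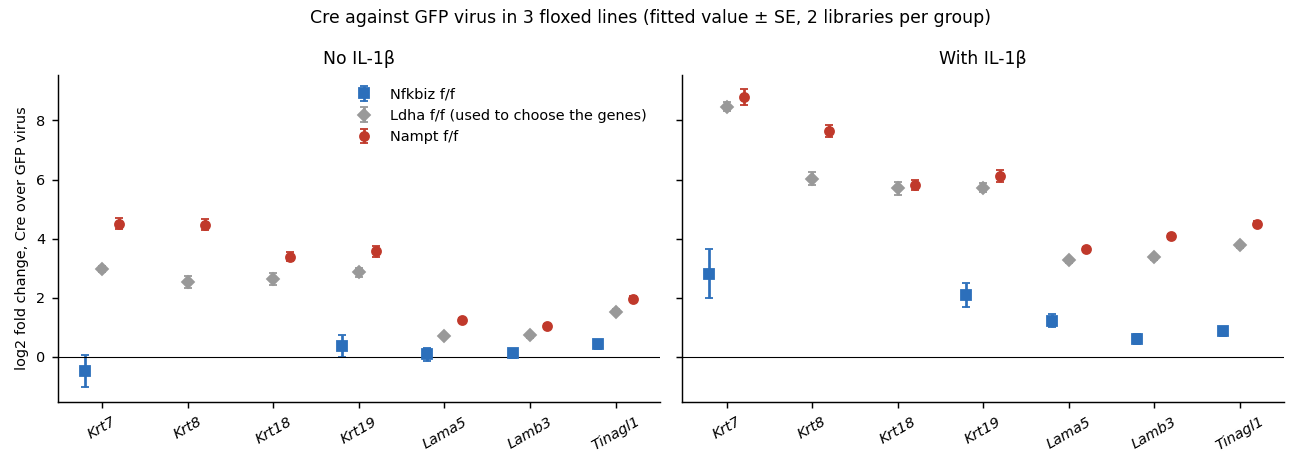
Fitted log2 fold change of Cre over GFP virus (± SE, 2 libraries per group) for each gene in Nfkbiz f/f (squares), Ldha f/f (diamonds) and Nampt f/f (circles), without IL-1β at left and with it at right. Nampt f/f lies above Nfkbiz f/f for each gene tested in both, for example 8.78 against 2.80 for Krt7 with IL-1β.

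The difference between the lines was tested in 1 fit over the 16 libraries of Nampt f/f and Nfkbiz f/f, as the mean effect of Cre over both treatments in Nampt f/f minus that in Nfkbiz f/f. Krt8 entered this fit only through its Cre libraries in Nampt f/f, so its value, 5.98 ± 0.89 on the log2 scale, is a description. The other 6 genes were called, with the effect higher in Nampt f/f by 5.44 ± 0.90 for Krt7, 4.46 ± 0.43 for Krt18 and 3.58 ± 0.28 for Krt19. For the secreted proteins the difference was 1.77 ± 0.18 for Lama5, 2.17 ± 0.13 for Lamb3 and 2.58 ± 0.13 for Tinagl1. The largest adjusted p of the 6 was 0.000231 (edgeR), for Krt7, where 12.8% of 16515 genes were called higher. The difference of Krt7 was 3.12 (edgeR, adjusted p = 0.987) without the first Nfkbiz f/f library with GFP virus and IL-1β, which leaves that group at 0 counts, and that of Krt8 was 3.54 (adjusted p = 0.993) without the second. The lines also differ in library set, since all Nfkbiz f/f libraries are of the second set. With that set alone the differences ran from 1.80 for Lama5 to 4.77 for Krt7, with Krt8 at 5.74. In a model of all 32 libraries Lama5 was not called (edgeR, adjusted p = 0.0622).

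The response to IL-1β was compared under each virus, with contrasts that share libraries with those above. With GFP virus in Nampt f/f, 5 of the 7 fell with IL-1β, Krt7 by 3.04 ± 0.47 on the log2 scale (edgeR, adjusted p = 0.000528), Lama5 by 1.40 ± 0.06, Lamb3 by 0.85 ± 0.08, Krt18 by 0.67 ± 0.21 and Tinagl1 by 0.31 ± 0.07. Of all genes, 17.3% were called lower. Krt8 (-1.16 ± 0.38, adjusted p = 0.0809) and Krt19 (-0.66 ± 0.29, adjusted p = 0.104) were not called by edgeR, and with the library set as a block Krt19 was called (-0.66, adjusted p = 0.0434). Krt18 was not called after scaling by library totals (-0.60) or by voomWithQualityWeights (-0.65). Krt18 and Tinagl1 lost the call without the second library with GFP virus alone (-0.54 and -0.23) or the second with GFP virus and IL-1β (-0.49 and -0.25), and in a model of all 32 libraries 1 of the 7 was called. With Cre virus all 7 rose with IL-1β, by 2.23 ± 0.07 for Tinagl1, 2.20 ± 0.07 for Lamb3, 1.99 ± 0.12 for Krt8, 1.88 ± 0.13 for Krt19, 1.75 ± 0.11 for Krt18, 1.23 ± 0.14 for Krt7 and 0.99 ± 0.06 for Lama5. Of all genes, 24.3% were called higher. This contrast was added after the values were seen, and in a model of all 32 libraries 5 of the 7 were called, Krt7 and Lama5 not.

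The interaction, the effect of Cre with IL-1β minus that without, was called higher in Nampt f/f for the 6 genes that passed the filter with GFP virus too. They lay between 2.39 ± 0.09 for Lama5 and 4.27 ± 0.47 for Krt7. The largest adjusted p of the 6 was 0.00027 (edgeR), for Krt19, against 12.0% of genes called higher. Krt8 (3.15 ± 0.39) entered only through Cre libraries, so its value is a description. With the library set as a block 5648 genes were called in either direction in place of 3552, and in a model of all 32 libraries 4 of the 7 were called. In Nfkbiz f/f with GFP virus, Krt7 (-3.84 ± 0.77), Lama5 (-1.14 ± 0.22) and Lamb3 (-0.58 ± 0.16) fell with IL-1β, against 11.7% of genes called lower, and Krt19 (-0.90 ± 0.42) and Tinagl1 (0.28 ± 0.15) were not called. The call of Lamb3 was lost without the first library with GFP virus (-0.53) or the first with GFP virus and IL-1β (-0.41), and Krt7 ranged from -8.34 to -2.78. With Cre virus 1 of the 5 tested genes rose in that line, Tinagl1, by 0.73 ± 0.14 (edgeR, adjusted p = 0.00367), where 11.7% of genes were called higher. The interaction in Nfkbiz f/f was not called for any of the 5, with values from 0.44 ± 0.20 for Tinagl1 to 3.28 ± 1.00 for Krt7 (edgeR, adjusted p = 0.0907), against 1.69% of genes called higher. Lama5, at 1.13 ± 0.31 with an adjusted p of 0.0542 (edgeR), was called without the first library with GFP virus (1.34), the first with Cre virus (1.60) or the first with Cre virus and IL-1β (1.24). Krt7 was called at 7.78 without the first library with GFP virus and IL-1β, and Tinagl1 at 0.63 without the first with Cre virus and IL-1β. In Ldha f/f the values were between -3.68 (Krt7) and -0.12 (Tinagl1) with GFP virus and between 0.96 (Lama5) and 2.63 (Krt19) with Cre virus.

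**Figure D3:**
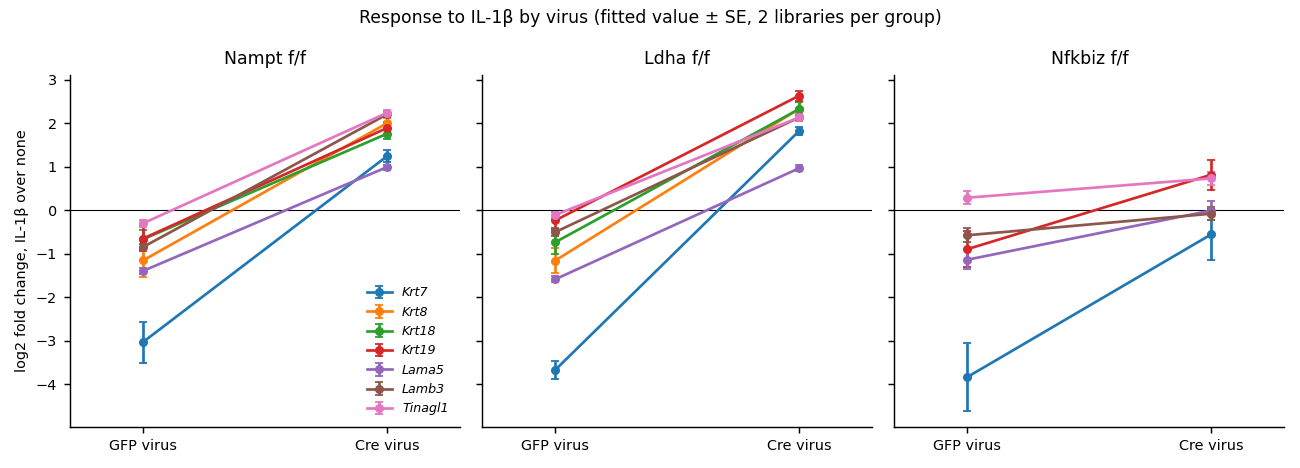
Fitted log2 fold change of IL-1β over none (± SE, 2 libraries per group) with GFP virus and with Cre virus in Nampt f/f, Ldha f/f and Nfkbiz f/f, 1 line per gene. In Nampt f/f the values go from below 0 with GFP virus (-3.04 for Krt7) to above 0 with Cre virus (1.23 for Krt7).

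FX11 asks whether inhibiting LDHA without virus or deletion moves the same genes. In wild type the levels were low and the 2 libraries of a condition far apart, with Krt7 at 2.42 and 3.90 CPM untreated and 1.20 and 1.10 in the libraries labelled FX11. Krt8 read 1.59 and 0.404 against 0.556 and 0, Krt18 1.18 and 0.184 against 0.417 and 0.0761, and Tinagl1 23.3 and 7.39 against 23.5 and 17.2. Krt19 did not pass the filter, and none of the other 6 was called without IL-1β, from -1.79 ± 1.39 for Krt8 to 0.42 ± 0.59 for Tinagl1, or with it, from -1.12 ± 1.07 for Krt7 to 2.31 ± 1.63 for Krt8. No gene at all was called by edgeR in either FX11 contrast, where 68 and 102 of 15461 genes had an unadjusted p of 0.05 or less and DESeq2 called 2 and 1. Without the 2 libraries that go against their labels none of the 6 was called either, and with IL-1β Krt7 was then at 1.85 and Lama5 at 2.28, in place of -1.12 and 0.41. The standard errors, near 1 on the log2 scale for the keratins, leave changes of several-fold undetectable in these libraries.

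The families of the 7 genes were followed with lists written with earlier results of these data known. Of 54 keratin genes, 17 passed the filter in Nampt f/f, but 11 of them only through Cre libraries, where they had to be high, so that the counts called among the 17 (11 higher without IL-1β, 15 with it, none lower) are no measure of the family. Of the 6 keratins over 1 CPM in a GFP library, 4 rose in both contrasts, Krt7, Krt18, Krt19 and Krt80, while 8.30% and 25.0% of all genes were called higher. Krt10 and Krt13 were not called. Krt80 rose by 2.54 ± 0.18 and 4.02 ± 0.17. Krt90 (5.15 ± 0.37 and 6.25 ± 0.37) and Krt5 (3.48 ± 0.32 and 4.15 ± 0.36), the type II keratin of basal cells in layered epithelia, passed the filter only through Cre libraries. Their values are therefore a description. Krt5 reached a mean of 5.68 CPM and Krt80 one of 58.3 CPM in Nampt f/f with Cre virus and IL-1β. Krt23 and Krt76 had 0 counts in both GFP libraries without IL-1β and were at least 9.78-fold and 11.9-fold higher with Cre virus, and Krt87, at 0 in both GFP libraries with IL-1β, was at least 18.1-fold higher, each against 3 counts over the group. Of the 25 genes between Krt7 and Krt18 other than Krt8, 7 were tested, each of which passed the filter only through Cre libraries. Of the 7, 5 were called higher without IL-1β and 7 with it, counts that for the same reason are no measure of the cluster. Krt90 and Krt75 were among those that rose in both contrasts. In Nfkbiz f/f with IL-1β, 4 of 8 tested keratins rose, Krt75 (2.61 ± 0.62) and Krt13 (1.67 ± 0.54) beside Krt7 and Krt19, against 8.16% of all genes. This count was 1 without the second library with GFP virus and IL-1β and 2 without the second with Cre virus and IL-1β.

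Laminin chains did not move as 1 group. Of 11 tested in Nampt f/f, 5 rose and 2 fell without IL-1β and 6 rose and 2 fell with it, with medians of 0.29 and 0.62 against -0.02 and -0.03 for all genes. Of all genes, 8.30% were called higher and 6.07% lower without IL-1β, and 25.0% and 23.4% with it. Leaving out Lama5 and Lamb3, 3 of 9 rose and 2 fell, then 4 rose and 2 fell, and the medians were 0.08 and 0.28. Without IL-1β the 7 calls among the 11 became 3 without the first library with Cre virus and 4 without the second or without the first with GFP virus. With IL-1β, Lamb3 rose by 4.08, while Lama3, an α chain, rose by 1.10 ± 0.42 (edgeR, adjusted p = 0.0492). Lamc1, the γ chain shared by most laminins, rose by 0.62 ± 0.06 and Lamb1 by 0.28 ± 0.06, whereas Lamb2 fell by 0.85 ± 0.07 and Lama4, the α chain typical of vessel and muscle basement membranes, fell by 1.28 ± 0.07. Lama4 also fell in Nfkbiz f/f with IL-1β, by 0.85 ± 0.09.

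Receptors and partners of these proteins moved in both directions, in a contrast where 8.30% of all genes were called higher and 6.07% lower without IL-1β and 25.0% and 23.4% with it. Of 14 laminin receptors in Nampt f/f, 6 rose and 4 fell without IL-1β and 8 rose and 4 fell with it. Bcam, a receptor for LAMA5, rose by 4.58 ± 0.17 with IL-1β, Itga3 by 3.29 ± 0.07 and Itgb4, the integrin chain of hemidesmosomes, by 3.12 ± 0.09, while Sdc2 fell by 1.78. Of 18 genes for proteins that join keratins to junctions, 7 rose and 1 fell, then 11 rose and 2 fell, with Pkp3 at 5.36 ± 0.54 and Dsp, the desmoplakin that ties keratins to desmosomes, at 3.58 ± 0.13 with IL-1β. Of 21 other basement membrane genes, 5 rose and 4 fell, then 9 rose and 8 fell, led by Col18a1 at 3.04 ± 0.08 and Frem2 at -2.21. The 9 calls without IL-1β became 5 without the second library with Cre virus. Of 12 other intermediate filament genes, 5 then 8 rose and none fell. The vimentin gene Vim, the main intermediate filament of mesenchymal cells, was at 0.17 and 0.06 and was not called, but rose by 0.89 in Nfkbiz f/f with IL-1β. How many genes of these lists passed the filter only through Cre libraries was not counted, so the filter may have raised the counts of rises. The same holds for lists below where no such number is given. In Nfkbiz f/f with IL-1β, 2 laminin receptors rose and 2 fell, 5 junction genes rose, 4 basement membrane genes rose and 4 fell, and 3 laminins rose and 1 fell, where 8.16% and 9.20% of all genes were called. The 8 basement membrane calls became 3 and 4 without the first and the second library with GFP virus and IL-1β. The laminin calls became 2 without the first of these, and the junction calls 8 without the first with Cre virus and IL-1β.

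Markers of other cell types were followed as well. The summed level of 20 epithelial markers ranged from 10.4 to 22.5 CPM in the 20 GFP and wild-type libraries, from 24.2 to 97.9 in the 8 Cre libraries of Ldha f/f and Nampt f/f and from 21.8 to 46.3 in the 4 of Nfkbiz f/f. In Nampt f/f 7 of the 13 markers tested passed the filter only through Cre libraries. Of the 6 over 1 CPM in a GFP library, 2 rose in each contrast and none fell, against 8.30% and 25.0% of all genes. Over all 13, 7 were called higher without IL-1β, a count that became 3 without the first library with GFP virus and 4 without the second with Cre virus, and 8 with it. With IL-1β these included Cldn4 (5.29 ± 0.58), Spint1 (5.15 ± 0.56), Prss8 (4.46 ± 0.41) and Cdh1 (3.50 ± 0.32), the gene of E-cadherin. Each of these 4 passed the filter only through Cre libraries, so their values are a description. The levels of the epithelial markers were low. Epcam, an adhesion molecule of most epithelia, was at no more than 8.55 CPM and Cdh1 at no more than 7.90 in any library. Esrp1 and Ocln were at no more than 0.452 and 0.482 CPM in the 8 Cre libraries. St14 and Esrp2 reached 31.1 and 13.9 CPM there, and St14 reached 32.8 CPM in a library outside those 8. The part of epithelial cells in the rise of the 7 genes was not tested.

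The 11 mesothelial markers in the table, of 12 listed, summed to between 28.3 and 39.3 CPM in those 8 Cre libraries, to between 5.66 and 34.0 in the GFP and wild-type libraries and to between 33.3 and 49.9 in the 4 Cre libraries of Nfkbiz f/f. In Nampt f/f, 8.30% of all genes were called higher and 6.07% lower without IL-1β, and 25.0% and 23.4% with it, beside which each count below stands. Of the mesothelial markers 4 of 6 tested rose without IL-1β, 2 of the 6 having passed the filter only through Cre libraries. This count became 1 without the first library with Cre virus and 2 without the second or without either with GFP virus. With IL-1β 3 rose and 1 fell, with Msln (mesothelin) at 4.53, while Gpm6a, Lrrn4, Upk1b and Upk3b were at no more than 0.0662, 0.317, 0.452 and 0.723 CPM in the 8 Cre libraries. Chondrocyte markers fell in Nampt f/f, 16 of 16 without IL-1β, with a median of -0.57, and 13 of 16 with it, with a median of -0.80. Their sum was 79167 and 80227 CPM with GFP virus against 55178 and 55854 with Cre virus in Nampt f/f. In Nfkbiz f/f with IL-1β 3 rose and 1 fell, where 8.16% of all genes were called higher and 9.20% lower. The 4 calls became 2 without either library with GFP virus and IL-1β. Of 11 fibroblast and perichondrium markers in Nampt f/f, 6 fell without IL-1β and 9 fell and 1 rose with it. Of 10 endothelial markers 1 of 7 tested rose (Kdr, at 2.90), then 3 rose and 1 fell. Of 5 macrophage markers tested none moved without IL-1β and 2 fell with it, and of 8 muscle markers 1 rose and 3 fell, then 2 rose and 4 fell. Leaving out 1 library took the muscle calls from 4 to as few as 1 without IL-1β (the second with Cre virus) and from 6 to 3 with it (the second with Cre virus and IL-1β), and with IL-1β the endothelial calls from 4 to 2 (the first with GFP virus and IL-1β or the second with Cre virus and IL-1β) and the macrophage calls from 2 to 1 (the second of either). Among 15 targets of p53, 9 rose without IL-1β and 10 rose and 2 fell with it, the largest Perp at 1.10 and 1.49. Of 6 E-box repressor genes, a list added after the values were seen, 1 rose (Twist2) and 1 fell (Snai2), then 1 rose and 4 fell, Snai2 the most at -1.80. The 2 calls without IL-1β became 1 without the first library with GFP virus or either with Cre virus. The part of these shifts in the result was not tested.

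**Figure D4:**
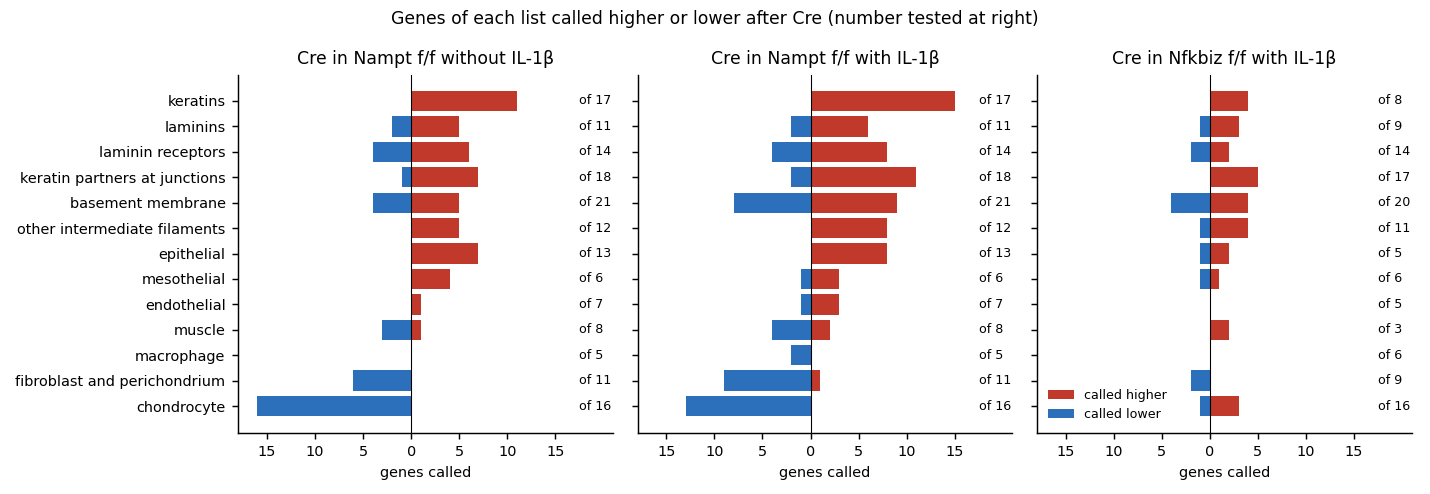
Number of genes of each list called higher (red, right) or lower (blue, left) by edgeR with Cre against GFP virus in Nampt f/f without and with IL-1β and in Nfkbiz f/f with IL-1β, with the number tested at the right. Chondrocyte markers (13 of 16) extend to the left in Nampt f/f with IL-1β, where 23.4% of all genes were called lower. Of the 17 keratins tested 11 passed the filter only through Cre libraries.

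The 10 genes whose log2 CPM over the 32 libraries most resembled the mean of the 7 standardized genes, out of 13913 that exceeded 1 CPM in 16 or more libraries, were Itgb4 (Pearson's r = 0.97), Axin2, Cadm4, Col7a1, Bmp7, Aqp5, Msln, Unc13d, Rdh10 and Dsp (r = 0.94). The libraries fall into the 8 with Cre virus of Ldha f/f and Nampt f/f and the other 24, so r is a measure of likeness only and the libraries of a line share their cells and treatment. Itgb4 ranged from 35.4 to 102 CPM in the 8 and from 6.57 to 14.5 in the other 24, and Col7a1, the anchoring fibril collagen of the skin, from 16.4 to 95.3 against 0.661 to 4.65. Axin2, a target of Wnt signalling, ranged from 27.5 to 52.1 against 2.17 to 10.8 CPM, and Bmp7, a secreted growth factor, from 21.4 to 54.6 against 3.09 to 15.2. That the 8 and the 24 stand apart follows from how these genes were picked and is no result.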

How the data were processed

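RNA of 32 libraries of primary mouse sternal chondrocytes was sequenced after ribosomal RNA depletion. The authors aligned reads with STAR to the Ensembl release 76 GRCm38 assembly and counted unique, unambiguous reads on 41388 genes with featureCounts (the submitters' processing notes give STAR 2.0.4b and featureCounts 1.45). Strand use in counting is not stated in the sources used here. Counts were deposited without any normalization. CPM (count over library total) and RPKM (CPM per gene length), which the authors deposited beside them, entered no test. Symbols came from a name table that matched 40254 gene identifiers, and spans from the positions deposited with the counts. Gene types came from GENCODE release M21 on GRCm38, whose spans differ from those given here for Krt8, Krt18 and Lamb3.

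Counts were tested with edgeR 4.0.16 (R 4.3.3): TMM, quasi-likelihood F-test, two-sided, Benjamini-Hochberg over the genes that exceeded 1 CPM in any library of the fit, 355 ribosomal RNA genes left out, and a call at an adjusted p of 0.05 or less. Each line's 8 libraries were fitted together. SE is the log2 fold change over the root of F. CPM in the text uses TMM factors over 32 libraries, and likeness uses log2(CPM + 0.5). Totals of 15830658 to 39959888 counts put 3 counts, the floor, well below 1 CPM. Simulated 2-fold changes were recovered for 172 of 200 genes among 15467, with 5 false calls, for Nampt f/f with IL-1β, and for 180 of 200 among 14827, with 10 false calls, for Nfkbiz f/f with IL-1β. The changed genes were drawn only from those above a minimum mean count, and no other gene was changed. The recovery therefore does not apply to genes at few counts, such as the keratins in Nfkbiz f/f.

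The title styles of the labels give 2 library sets of 12 and 20. Libraries of 1 set deviated together in Nampt f/f (correlations of 0.42 to 0.57 over the 6 pairs of conditions), so the set was taken to pair them. Alternatives were DESeq2 1.42.0, limma 3.58.1 (voomWithQualityWeights, the study's method), RLE, library totals, filterByExpr, no filter, all 32 libraries in 1 model, the set as a block, set 2 alone and each library left out. Leaving out the 2 doubtful wild-type libraries and the contrasts of IL-1β with Cre virus were added after seeing the data.

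The 7 genes and all gene lists were chosen with earlier results of these data known. The genes named are the 7, the 3 floxed genes, up to 4 called genes per list and contrast by size of change, called genes between Krt7 and Krt18, and the 10 most alike. Mmp3, the unchanged Vim, Epcam and the markers at low levels, the laminin chains with smaller changes and single list genes further down were chosen after their values were seen. Some genes counted in the lists are not reported here by name.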

Additional observations from a re-analysis of the deposited data

Results flagged for a closer look

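The effect of Cre virus was higher in the Nampt f/f line than in Nfkbiz f/f for all 7 genes in edgeR's test of the difference itself, which marked them for a closer look. Krt8 entered that test only through its Cre libraries in Nampt f/f, so its value is a description. The log2 difference was 5.44 for Krt7, 5.98 for Krt8, 4.46 for Krt18, 3.58 for Krt19, 1.77 for Lama5, 2.17 for Lamb3 and 2.58 for Tinagl1. The values of Krt7 and Krt8 rest on 0 to 6 counts per library in Nfkbiz f/f with GFP virus and IL-1β, and each lost its call without 1 of those 2 libraries, at 3.12 and 3.54. With 2 libraries per condition no single library could be tested as an outlier.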

How the results depend on the processing

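With 2 libraries per condition, each spread rests on few libraries, and the keratins rest on few counts outside the Cre conditions. The 7 calls of Cre in Nampt f/f with IL-1β held in all 56 values with 1 library left out and in all 56 under the other settings. Krt8, 1 of the 7, passed the main filter only through Cre libraries, so its values are a description. Over all contrasts with a test, 649 values with 1 library left out kept direction and call, 13 lost the call, 5 gained it and 17 changed sign, and under the other settings 591 kept both, 21 lost the call, 8 gained it and 6 changed sign. Of 448 values in Ldha f/f, 88 moved by more than 1 SD and 1 changed sign, and 820 of 930 list counts stayed within 1.5 times. Causes of the changes below were not tested.

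In 1 model of all 32 libraries, the members called went from 5 to 1 for IL-1β with GFP virus in Nampt f/f, from 7 to 4 for the interaction in Nampt f/f, from 5 to 1 for Cre in Nfkbiz f/f with IL-1β, from 3 to 1 for IL-1β with GFP virus in Nfkbiz f/f and from 1 to 0 for IL-1β with Cre virus there. All genes called there were 214 for Cre in Nampt f/f without and 4370 (of 7808) with IL-1β, 1664 (of 5642) for IL-1β with GFP virus, 525 for the interaction and 3464 (of 7091) for IL-1β with Cre virus. In Nfkbiz f/f they were 23 (of 40), 617 (of 2666), 1589 (of 4120), 26 (of 797) and 665 (of 3391) in that order, 1249 (of 4309) for the line difference, and 3 and 11 for FX11 without and with IL-1β, where the line's own fit called 0. The interaction in Nfkbiz f/f, with 0 of 5 called, gave 1 with DESeq2, 2 with voomWithQualityWeights, 1 with library totals and 2 with no filter.

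The replicate block, which pairs libraries by set, gave 4311 genes for Cre in Nampt f/f without IL-1β (2319 without the block) and 5648 for the interaction (3552), and among the 7 genes it changed 1 call, that of Krt19 for IL-1β with GFP virus in Nampt f/f. Without IL-1β in Nfkbiz f/f DESeq2 called 71 genes and no filter 170 (of 40), no filter called 1325 for the interaction there (of 797), DESeq2 called 2 and 1 genes for FX11, and set 2 alone called 2322 for the line difference. Library totals moved the split from 2857 higher and 2785 lower to 3145 and 1963 for IL-1β with GFP virus in Nampt f/f, from 259 and 538 to 357 and 462 for the interaction in Nfkbiz f/f, and from 1804 and 1587 to 2661 and 932 for IL-1β with Cre virus there, with a median shift of 0.11 in the last.

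With 1 library left out, members called ranged from 3 to 5 for Cre in Nfkbiz f/f with IL-1β, from 3 to 5 for IL-1β with GFP virus in Nampt f/f, from 2 to 3 for it in Nfkbiz f/f, from 0 to 2 for the interaction in Nfkbiz f/f and from 6 to 7 for the line difference. Genes called ranged from 1332 to 2167 for Cre in Nampt f/f without IL-1β, and in Nfkbiz f/f from 21 to 54 and from 1290 to 3733 for Cre without and with IL-1β, from 2487 to 4998 for IL-1β with GFP virus, from 344 to 1892 for the interaction and from 1523 to 4605 for IL-1β with Cre virus.

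Signs changed only for values that were not called. For Cre in Nfkbiz f/f without IL-1β, leaving out 1 library gave -0.39 to 0.43 for Lama5 and -0.075 to 0.27 for Lamb3. For IL-1β with Cre virus there it gave -0.96 to 0.014 for Krt7, -0.35 to 0.46 for Lama5 and -0.23 to 0.10 for Lamb3, where Lama5 was also 0.042 with voomWithQualityWeights and 0.10 with library totals, and Lamb3 0.026 with library totals. For FX11 without IL-1β it gave -0.82 to 0.55 for Lamb3 and -0.19 to 1.48 for Tinagl1, and with IL-1β -2.04 to 1.85 for Krt7, -1.21 to 2.28 for Lama5 and -0.22 to 0.90 for Lamb3. Without the 2 wild-type libraries that go against their labels, a choice made after seeing the data, Lamb3 was 0.43 for FX11 without IL-1β and Krt7 1.85 with it, and Krt7 was 0.0099 with voomWithQualityWeights.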
